A study of Mus musculus with 21 samples.

Results

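Chromatin domains of mouse Th2 cells were compared between 2 domain lists, 1 for each Th2 library of the series (2 of its 21 samples), and with the authors' list for both Th2 libraries together. The series concerns CTCF, contacts between enhancers and promoters, and differences in expression from cell to cell. On chr1 to chr19, the range examined, library 1 had 1909 domains, library 2 had 1640 and the combined list 1886. Chromosome X added 52, 49 and 55. Both libraries came from T helper cells of C57BL/6 mice. Naïve CD4+ cells without CD25, high in CD62L and low in CD44, were sorted from lymph nodes. They were driven through 2 rounds of polarization with IL-4 at 5000 U/ml and IL-2 at 100 U/ml, with IFNγ and IL-12 blocked by antibodies at 10 μg/ml each. The labels give both libraries the same treatment and number them 1 and 2. They name no separate animals or cultures, so the spread between the libraries may be technical. Lists from 2 libraries of R1 embryonic stem (ES) cells, a line of strain 129X1 x 129S1 grown on feeder cells, served as an outside comparison. Expression of the Th2 cells was not analysed here, so the cell type rests on the labels and was not checked against its markers.

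The assay, 3e Hi-C, joins DNA ends that lie close together in fixed nuclei, here after 10 min in 1% formaldehyde and digestion by a mixture of 3 enzymes (CviQ I, CviA II and Bfa I), and sequences the joined pairs. A chromatin domain is a stretch of chromosome in which contacts are frequent among its own loci and rarer across its borders. In mammals, domain borders are often occupied by CTCF, a zinc-finger protein, and by cohesin, the ring complex that extrudes loops until CTCF stops it. Genes and their enhancers mostly meet within a domain. In Th2 cells the best known case is the type 2 cytokine cluster, where Il4, Il13 and Il5 share regulatory elements. The lists give only chromosome, start and end of each domain, on a 40 kb grid of the mouse build mm9. No score, contact count or depth comes with them, so the precision of an edge is 1 grid step at best. All coordinates below are mm9, 1-based. Gene content of the regions was not analysed here, since no annotation of that build was used.

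The first comparison was of domain number and size. Library 1 divided nearly the same territory into more and shorter domains than library 2. The median domain was 680 kb long in library 1 and 840 kb in library 2, with 760 kb in the combined list. Quartiles were 400 and 1200 kb in library 1, 480 and 1400 kb in library 2, and 440 and 1280 kb in the combined list. The shortest domains were 160, 120 and 160 kb. Over the 2 libraries the domain count was 1774 ± 190 and the median size 760 ± 113 kb (SD, n = 2). With 1 library on each side no test of this difference is possible. The direction was the same on every chromosome for the count, with library 1 ahead on 19 of 19 by 1.05 to 1.31 times. Library 2 had the longer median domain on 18 of 19, and on chromosome 12 the medians were both 760 kb.

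Short domains of 400 kb or less made up 25.1% of library 1 (479 domains), 19.7% of library 2 (323) and 21.8% of the combined list (412). Domains of 2 Mb or more made up 10.1% (193), 13.4% (219) and 10.7% (202). Very long domains of 4 Mb or more were about as many in both libraries, 36 and 39, and held 209 and 220 Mb. The combined list had fewer, 26 domains with 154 Mb. The plot of cumulative domain length shows the whole range.

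**Figure D1:**
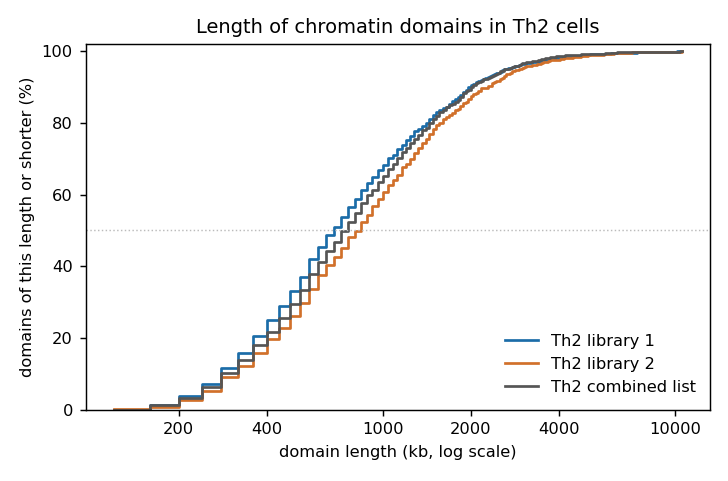
Cumulative share of Th2 domains (vertical axis, percent) by domain length (horizontal axis, kb, log scale) in library 1, library 2 and the combined list, chr1 to chr19. The dotted line at 50% crosses the curves at the medians of 680, 840 and 760 kb, and at both quartiles and the median the combined list lies between library 1 and library 2.

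Domains covered 1898 Mb in library 1 and 1846 Mb in library 2, which is 1872 ± 36.8 Mb (SD, n = 2), and 1929 Mb in the combined list. Of this, 1745 Mb lay in domains of both libraries, or 87.3% of the length covered in either. Domains filled 81.5% of the span from first to last domain in library 1 and 79.3% in library 2. Lists that cover this much overlap widely at any placement, and no background was computed for common coverage. Library 1 alone covered 152 Mb in 619 stretches, and library 2 alone covered 100 Mb in 385 stretches. Most such stretches were small, with a median of 80 kb in each direction, and 377 and 229 of them were 80 kb or less. A few long ones held much of the length: 29 stretches of 1 Mb or more held 69.6 of the 152 Mb in library 1, and 25 held 56.7 of the 100 Mb in library 2.

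The second comparison was of edges. An edge is a distinct start or end of a domain, so that 2 abutting domains have 1 edge between them. Despite the difference in domain number, the libraries had almost the same number of edges, 2500 and 2479, against 2622 in the combined list. Of the library 1 edges, 1813 (72.5%, 95% Wilson interval 70.7 to 74.2) had a library 2 edge within 40 kb. The background was 11.8%, the share of all grid positions that lie as near to a library 2 edge. In the other direction 1962 library 2 edges (79.1%, interval 77.5 to 80.7) had a library 1 edge within 40 kb, with a background of 12.4%. The mean of both directions was 75.8%. Intervals here and below cover counting error only, and neighbouring edges are not independent. At the very same grid position the libraries shared 1361 edges, which is 54.4% of library 1 and 54.9% of library 2 (background 4.23% and 4.26%). Distances between 40 and 120 kb added little: within 120 kb, 77.8% and 86.5% were found, while the background rose to 25.3% and 27.2%. As the plot of edges found against the distance allowed shows, most of the gain came with the first grid step. An edge of library 1 was thus mostly either at a library 2 edge within 1 step or far from any, with 556 edges (22.2%) over 120 kb away.

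**Figure D2:**
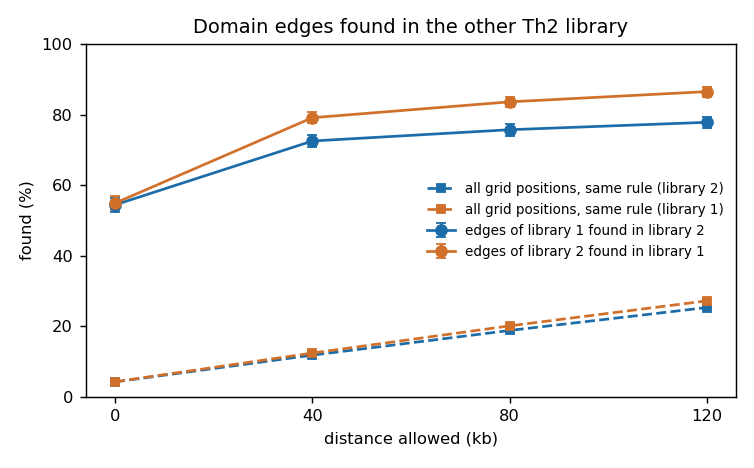
Share of domain edges found in the other Th2 library (vertical axis, percent) by the distance allowed (horizontal axis, kb). Circles with solid lines give the edges of each library with 95% Wilson intervals, and squares with dashed lines the share of all grid positions that meet the same rule; at 40 kb the edges reached 72.5% and 79.1% against 11.8% and 12.4%.

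The share of shared edges varied little between chromosomes. The mean share per chromosome ranged from 71% to 80% with a median of 75.6%. It was highest on chromosomes 16 (80%) and 10 (79.8%) and lowest on chromosomes 4 (71.0%) and 7 (71.7%). Common coverage varied more, from 78.6% of the length covered in either library on chromosome 5 and 80.5% on chromosome 4 to 93.9% on chromosome 13. These shares too have no background.

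Sharing differed by the kind of edge. Edges where 2 domains abut in library 2 were found in library 1 for 747 of 801 (93.3%, interval 91.3 to 94.8). Its edges that face a gap were found less often, with 626 of 839 starts (74.6%, interval 71.6 to 77.4) and 589 of 839 ends (70.2%, interval 67.0 to 73.2). In library 1 abutting edges were again found most often, 1010 of 1318 (76.6%, interval 74.3 to 78.8). Its starts followed with 396 of 591 (67.0%, interval 63.1 to 70.7) and its ends with 407 of 591 (68.9%, interval 65.0 to 72.5), and these intervals overlapped each other.

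Small offsets between the libraries were not symmetric. Where the nearest library 2 edge was 1 grid step away on a single side, it lay upstream (toward the chromosome start) for 252 library 1 edges and downstream for 168. The direction depended on the kind of edge. At abutting edges of library 1 the counts were 95 upstream and 24 downstream, and at starts that face a gap they were 106 and 53. At ends that face a gap the order was the reverse, with 51 upstream and 91 downstream. In domains shared by both libraries, the end lay 1 step earlier in library 2 for 183 and later for 72 of 881. The start lay 1 step earlier for 117 and later for 91. Most shared domains nevertheless had their start (673) or end (626) at the same position, and 514 had the same length.

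The third comparison was of junctions. A junction is the place between consecutive domains of a chromosome. It is abutting where one domain starts where the previous one ends, and otherwise a gap that belongs to no domain. In library 1, 1318 of 1890 junctions were abutting (69.7%, interval 67.6 to 71.8). In library 2 they were 801 of 1621 (49.4%, interval 47.0 to 51.8). The combined list lay between with 1150 of 1867 (61.6%). The mean over libraries was 59.6 ± 14.4% (SD, n = 2). Library 1 had the higher share on 19 of 19 chromosomes, by 6.9 percentage points on chromosome 7 up to 30.1 on chromosome 16. The 2 Th2 libraries lay 20.3 points apart, and the 2 ES libraries, with 43.3% and 37.7%, lay closer together. With so few libraries this difference in spread was not tested.

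Short gaps made up much of the difference. Gaps of exactly 40 kb, 1 grid step, numbered 73 in library 1 and 197 in library 2, and gaps of 80 kb numbered 58 and 101. Counting gaps up to 40 kb as abutting narrowed the difference between the libraries to 12.0 points, and counting gaps up to 80 kb to 8.87 points. Longer gaps were more alike, with 250 and 299 gaps of 120 to 400 kb and 191 and 223 gaps over 400 kb. The combined list had 210 gaps of 40 kb, close to library 2, but fewer gaps over 400 kb than either library (170). The plot of junctions by distance gives all classes.

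**Figure D3:**
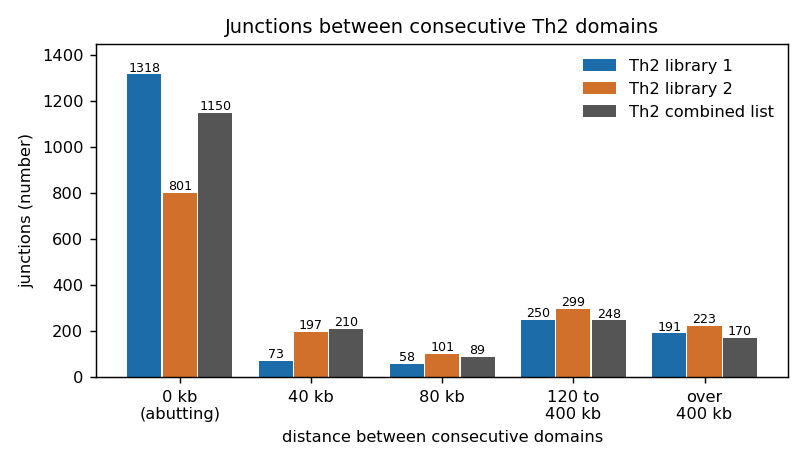
Number of junctions between consecutive Th2 domains (vertical axis) by the distance between them (horizontal axis), in library 1, library 2 and the combined list; numbers over the bars are counts. Library 1 had 1318 abutting junctions and 73 gaps of 40 kb, against 801 and 197 in library 2.

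What library 2 had at the abutting junctions of library 1 was looked up within 40 kb. Of the 1318, 683 (51.8%, interval 49.1 to 54.5) were abutting there too, against 4.11% of all grid positions. A further 338 (25.6%, interval 23.4 to 28.1) were a gap in library 2, a share near the background of 24.8%. Another 294 (22.3%, background 70.7%) lay inside a single library 2 domain, and 3 lay beyond its outermost domain (background 0.402%). In the reverse direction 683 of the 801 abutting junctions of library 2 (85.3%, interval 82.6 to 87.6) were abutting in library 1, with a background of 6.76%. Only 63 were a gap there (7.87%, background 21.4%) and 55 lay inside 1 domain (6.87%, background 71.5%), with 0 beyond the outermost domain (background 0.346%). The count was 683 in both directions. The shares of 51.8% and 85.3% therefore differ only by the number of abutting junctions in each library, 1318 and 801. The plot of what the other library had at each junction sets both directions side by side.

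Because the count of 338 was near the background, it says nothing by itself about a link between these junctions and the gaps of library 2. The gaps at these places had a median of 80 kb, with quartiles of 40 and 160 kb. In 154 the gap was a single grid step. In 177 of the 338 the library 1 edge was the start of the downstream library 2 domain, so the gap lay upstream of it. In 81 it was the end of the upstream domain, in 67 it lay within the gap and in 13 it was 1 step outside. Viewed from library 2, 154 of its 197 gaps of 40 kb (78.2%, interval 71.9 to 83.4) were an abutting junction in library 1. The share of single grid positions was 6.76%, which is not matched to the width of a gap. Of gaps of 80 kb 52 of 101 were abutting in library 1, and of gaps over 400 kb 23 of 223. A gap counted as abutting only where no library 1 gap lay within 40 kb of it. Longer gaps meet another gap more easily, so part of this fall is built into the rule.

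**Figure D4:**
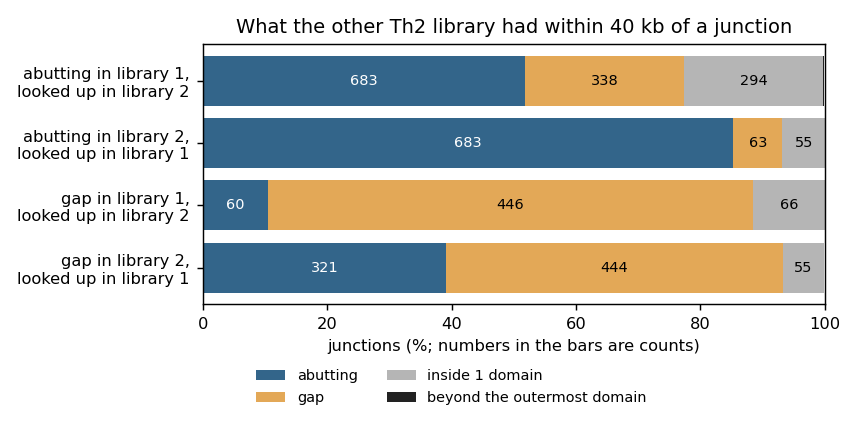
Outcome in the other Th2 library, within 40 kb, for abutting junctions and gaps of each library, 1 bar for each class; bar lengths are percent of the class and the numbers in the bars are counts. Of the abutting junctions of library 1, 683 of 1318 were abutting in library 2, and in the reverse direction the same count, 683, was out of 801.

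Counting each boundary once, whether abutting or gap, gave higher shares than counting edges. The background was higher too, above the 11.8% and 12.4% of edges, so the match was not shown to be closer. Of 1890 boundaries of library 1, 1527 (80.8%, background 28.9%) touched a boundary of library 2 or lay within 40 kb of one. Of 1621 boundaries of library 2, 1511 (93.2%, background 28.2%) did so in library 1. This background takes single grid positions, while a gap is wider and touches a boundary more easily. It is therefore too low for boundaries that are gaps.

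Gaps were the fourth feature compared. Between consecutive domains library 1 left 432 Mb in 572 gaps and library 2 left 482 Mb in 820 gaps, 457 ± 35.8 Mb (SD, n = 2). The median gap was 240 kb in library 1, 160 kb in library 2 and 120 kb in the combined list. In length the large gaps dominated: 77 gaps of 2 Mb or more in each library held 267 and 274 Mb, which is 61.8% and 56.8% of the gap length. Of these, 64 of the 77 in library 1 and 65 of the 77 in library 2 lay by 50% or more of their length inside 1 gap of the other library. No background of matched width was computed for this count or for the overlaps of gaps that follow. In all, 339 Mb lay in gaps of both libraries. One gap of each library overlapped exactly 1 of the other in 423 cases, and 97 of these had identical limits. Among these pairs neither library had the wider gaps throughout, since 161 were longer in library 1, 149 longer in library 2 and 113 equal. Among these pairs, at any distance, limits were more often earlier than later in library 2, with 127 against 95 starts and 135 against 89 ends. Gaps without any overlap in the other library had a lower median than all gaps of their library. Part of this is built into the rule, since a short gap meets another gap less easily. Gaps without overlap numbered 144 in library 1, with a median of 120 kb and 40 Mb in all, and 64 of them were 80 kb or less. Library 2 had 393, with a median of 80 kb and 82 Mb in all, and 237 of them were 80 kb or less.

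The 3 longest gaps of both libraries outside chromosome 18 were chr15:12960001-24400000 (11.4 Mb), chr14:88000001-97480000 (9.48 Mb) and chr14:106920001-115200000 (8.28 Mb). The first and the last were empty in the combined Th2 list as well, and the other was covered there over 15.2% of its length. In ES cells domains were listed over 88.8% and 63.6% of the first, 95.8% and 93.2% of the second and 92.8% and 93.7% of the third (ES libraries 1 and 2). Over the whole span from the first to the last domain of each chromosome, ES domains covered 86.4% and 86.7%, and Th2 domains 81.5% in library 1 and 79.3% in library 2. The coverage of the 3 gaps in ES cells was thus close to or above that share, except for the 63.6% of the first gap in ES library 2.

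Whole domains were compared next. A domain was shared when both its edges lay within 40 kb of both edges of 1 domain of the other library. By this rule 881 domains were shared, 46.1% of library 1 (interval 43.9 to 48.4) and 53.7% of library 2 (interval 51.3 to 56.1). Intervals of the same lengths placed at every grid position matched in 0.639% and 0.748%. Both edges were identical in 481. The shared domains had a median of 640 kb in both libraries.

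The other domains of library 1 were mostly nested. Of them 665 (34.8%, median 560 kb) fitted inside a longer library 2 domain, 62 held 2 or more whole library 2 domains, and 55 were covered by library 2 over less than 50% of their length. In 99 both edges were found but belonged to different domains, in 113 a single edge was found, and in 34 neither. From the side of library 2, 339 domains (20.7%) fitted inside a longer library 1 domain and 240 (14.6%, median 1280 kb) held 2 or more of its domains. Library 2 domains thus contained several library 1 domains more often than the reverse, 240 against 62. Library 2 also had the fewer and longer domains, and no background was computed for these classes. Whether nesting exceeds what intervals of these lengths would show at any position was not tested. Sharing fell with size in library 2, from 229 of 323 domains of 400 kb or less (70.9%, interval 65.7 to 75.6) to 78 of 219 domains of 2 Mb or more (35.6%, interval 29.6 to 42.2). In library 1 it went from 47.8% to 40.9% over the same classes, with overlapping intervals (43.4 to 52.3 and 34.2 to 48.0).

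Some identical domains of both libraries followed one another in runs. The longest run outside chromosome 18 had 7 consecutive domains with every edge at the same position. It lay at chr6:85760001-88880000 and consisted of abutting domains of 560, 360, 320, 320, 760, 400 and 400 kb. The combined list kept 6 of these domains and divided the one of 760 kb into 480 and 280 kb. A run of 6 at chr2:168800001-174840000 had abutting domains of 1120, 440, 1680, 1360, 720 and 720 kb. In the combined list the last of these was 880 kb long. The other run of 6, at chr12:60080001-72280000, included a gap, since a domain of 280 kb was followed by 5 abutting domains from 66.0 to 72.3 Mb, the first of them 4200 kb long. All 6 were identical in the combined list. Runs of 2 or more identical domains numbered 108 outside chromosome 18 and took up 278 of the 466 identical domains there. No background was computed for this share, so whether identical domains cluster was not tested.

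Regions that 1 library divided and the other did not were named by the number of whole domains inside 1 domain. The library 2 domain chr7:133240001-135360000 (2.12 Mb) held 5 abutting library 1 domains of 600, 560, 360, 360 and 240 kb. The combined list had 3 domains there, of 1160, 720 and 240 kb. At chr2:13160001-15000000 (1.84 Mb) a single library 2 domain faced 4 library 1 domains, of 400, 360, 720 and 240 kb. The longest library 2 domain, chr6:73280001-83800000 (10.5 Mb), held 4. One of these was itself 8520 kb long and also stood in the combined list, where it was followed by domains of 720 and 1200 kb. Reverse cases held 3 domains at most, with chromosome 18 left out of the ranking. At chr7:141000001-146040000 (5.04 Mb) library 1 had 1 domain and library 2 had 3, of 1480, 280 and 3000 kb with gaps between them. At chr19:20400001-22440000 (2.04 Mb) library 2 had 1040, 200 and 560 kb, and at chr15:81200001-82080000 (880 kb) it had 360, 280 and 200 kb. In the first 2 of these the combined list also had 3 domains, and at the third it had 2.

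The longest domains differed between the libraries. The longest of library 1, chr4:21920001-32040000 (10.1 Mb), was covered by library 2 over 76.3%, by a domain of 7120 kb with shorter ones at both ends, and the combined list had the same 7120 kb domain. Its next longest outside chromosome 18, chr5:77320001-86440000 (9.12 Mb), was covered over 6.14% in library 2. After chr6:73280001-83800000, the longest domain of library 2 outside chromosome 18 was chr1:109200001-119480000 (10.3 Mb). Library 1 covered 56.4% of it with a single domain of 5800 kb that ended at the same position, and the combined list had 1 domain of 10360 kb there.

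Stretches covered by a domain in 1 library and by none in the other reached several megabases. For library 1 the longest outside chromosome 18 were chr5:77920001-86440000 (8.52 Mb), chr4:35280001-40040000 (4.76 Mb) and chr12:46280001-50480000 (4.2 Mb). The combined list covered 26.3%, 93.3% and 3.81% of these. For library 2 they were chr1:109200001-113680000 (4.48 Mb), chr5:58760001-62680000 (3.92 Mb) and chr4:89400001-92840000 (3.44 Mb), covered in the combined list over 100%, 0% and 100%. Its share over the whole span was 82.8%, so the combined list followed neither library throughout. ES libraries 1 and 2 covered 65.3% and 85.4%, 100% and 99.2%, and 91.4% and 92.4% of the 3 stretches of library 1. Of the 3 stretches of library 2 they covered 82.1% and 58.9%, 53.1% and 63.3%, and 22.1% and 24.4%. Against their shares of the whole span (86.4% and 86.7%), both ES libraries were above in 2 stretches of library 1 and below in its first stretch and in all 3 of library 2. The maps of 4 of the regions named show the domains in each list.

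The combined list was made by the authors from these libraries and is not independent of them. Of its 2622 edges, 1855 (70.7%, interval 69.0 to 72.5) lay within 40 kb of an edge of both libraries, against 8.49% of grid positions. Another 360 (13.7%, background 3.95%) were near an edge of library 1 only, 251 (9.57%, background 3.36%) near an edge of library 2 only and 156 (5.95%, background 84.2%) near neither. Edges shared by the libraries were nearly all kept in it, 1741 of 1813 in library 1 (96.0%, background 12.5%) and 1896 of 1962 in library 2 (96.6%, background 12.6%). Of the edges found in 1 library only, it kept 349 of 687 from library 1 (50.8%, interval 47.1 to 54.5) and 264 of 517 from library 2 (51.1%, interval 46.8 to 55.3). The 2 intervals overlapped, so no preference for either library was detectable in the unshared edges. Of its 1886 domains, 824 (43.7%) were shared with both libraries, 440 with library 1 only, 311 with library 2 only and 311 with neither. No background was computed for these classes. Library 1 also had more domains to match, 1909 against 1640, so 440 against 311 shows no preference by itself.

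Only 5 combined domains had both edges over 40 kb from every edge of both libraries. Of the 3 longest of these outside chromosome 18, 2 lay close together, at chr7:26960001-28520000 (1.56 Mb) and chr7:28760001-29840000 (1.08 Mb). There library 1 had 1 domain of 3080 kb and library 2 had 1 of 3520 kb. The other lay at chr6:139440001-140680000 (1.24 Mb), where the libraries had 1 domain each, of 2480 and 2640 kb, that started inside it and ran beyond its end.

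The ES libraries gave a readout of Th2 edges that did not enter into the comparison of the 2 Th2 libraries. Edges shared by the Th2 libraries were found in ES cells more often than edges of 1 Th2 library. Of the shared library 1 edges, 61.1% and 62.4% had an edge within 40 kb in ES libraries 1 and 2, against 35.4% and 33.8% of its unshared edges (687). For library 2 the values were 61.0% and 62.6% of shared and 32.5% and 32.7% of unshared edges (517). The background was 13% and 13.3% for library 1 and 13.1% and 13.3% for library 2, so the unshared edges too lay above it. In all 4 pairs the 95% intervals of shared and unshared edges did not overlap, the closest being 58.8 to 63.3 and 31.9 to 39.0. These intervals treat edges as independent, which neighbouring edges are not. The 4 pairs reuse the same lists, so they are not separate evidence, and the difference was not tested across libraries. Averaged over the 4 pairs of a Th2 and an ES library, the difference was 28.2 points.

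The Th2 libraries shared more edges with each other (75.8%) than with ES libraries (53.0% to 54.2% in 4 pairs), a difference of 22.1 points from the mean of these pairs. The 2 ES libraries shared 78.7%. The statistic tested was the mean share of the Th2 pair and the ES pair less the mean between cell types, 23.5 points. An exact one-sided permutation test over the 3 ways to split the 4 libraries into pairs gave p = 0.333. This is the smallest p the design allows, so the test cannot reach 0.05.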

How the data were processed

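Domain lists of 2 Th2 Hi-C libraries and of their combination were used, and lists of 2 ES libraries for comparison. Groups and numbers follow the sample titles. The 17 samples without a domain list were not analysed here. The reads were aligned with Bowtie2 to mm9, per the submitters' processing notes. Which caller made the domains, at what resolution, and how both libraries were combined were not given in the sources used here. Deposited lists give sorted domains with 0 overlaps. Edges lie on a 40 kb grid except 8 (library 1) and 5 (library 2) ends at the last domain of a chromosome.

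Chr1 to chr19 were analysed in Python 3.11.15 (numpy 2.4.6, scipy 1.17.1, matplotlib 3.10.9). The measures are defined with their results. Edge sharing, outcomes of abutting junctions and length covered in 1 list only were checked on an altered copy of library 1. In that copy known domains were joined and known gaps opened. The other measures were not checked in this way. Backgrounds take all single grid positions between the outermost edges of a chromosome, or intervals of the same lengths at all positions. For junctions and boundaries, the positions have no width and follow the rule for abutting junctions. Gaps thus have no background of matched width. Shares carry 95% Wilson intervals. Depth is unknown, since the lists hold no read or contact numbers. Regions were named by rule: the 2 longest domains of each list, the 3 longest runs of identical domains, and 3 each of the domains holding most domains of the other library, stretches covered in 1 library, gaps of both, and combined domains without a matching edge, in addition to the 2 highest and 2 lowest chromosomes. Chromosome 18 was left out when regions were ranked, so no region on it was named. The members, lists and measures were chosen with earlier results of these data known.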

Additional observations from a re-analysis of the deposited data

How the results depend on the processing

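Of 51 alternative settings, 14 could not bear on stability: a mean of 2 libraries stays within 1 SD when 1 of them is left out (10 settings), and the permutation test cannot pass its threshold (4 settings). Of the other 37, 18 left the value within its 95% interval or within 1 SD over libraries or pairs of libraries. The remaining 19 moved it, and 0 reversed it. A reversal was possible only for the ES difference between shared and unshared edges and for the difference in abutting share. The other measures cannot be negative. The share of shared edges (75.8%) was 54.7% at exact positions, 79.7% and 82.1% within 80 and 120 kb, 87.0% with each boundary counted once, and 72.5% or 79.1% over the edges of library 1 or 2 only. Leaving out 1 chromosome gave 75.6% to 76.2%. The share of shared domains (49.9%, mean of both directions) was 27.3% at identical edges, 54.5% within 80 kb and 61.2% at a reciprocal overlap of 80%. Combined edges found in both libraries were 49.1% at exact positions and 74.9% within 80 kb, and those in neither 14.0% and 4.08%. Gap length fell to 296 Mb with gaps of 3 Mb or less only. Without 1 replicate the domain count was 1640 to 1909, the median size 680 to 840 kb, the abutting share 49.4% to 69.7%, the covered length 1846 to 1898 Mb and the gap length 432 to 482 Mb, which are the values of the single libraries.

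Settings chosen after seeing the data gave, at exact positions, 46.3% of library 1 and 76.2% of library 2 abutting junctions kept as abutting in the other library, and 22.5 points for the ES difference between shared and unshared edges. With gaps up to 40 or 80 kb counted as abutting, the abutting share of library 1 exceeded that of library 2 by 12.0 or 8.87 points. No paired analysis was possible because the comparisons of the Th2 libraries have 1 library on each side and no test, and the 1 test reported, over splits of the Th2 and ES libraries, uses shares between pairs of libraries, which have no replicate number. The unknown depth limits how far the lists can be compared. Whether it differs between the libraries was not tested.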

Other observations

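Edges gathered at 1 phase of the grid. Of the 50 grid positions in each 2 Mb, the odd whole megabase carried 78 edges in Th2 library 1 and 80 in library 2, the highest of the 50 in both, against medians of 51 and 50 over all positions. The next highest positions carried 62 and 61 edges, and the even whole megabase 43 and 50. In the combined Th2 list it carried 94 edges (median 51.5), and in the ES libraries 88 and 107 (medians 54 and 57). Of the 78 edges in library 1, 61 (78.2%) were at the same position in library 2, against 1300 of the other 2422 (53.7%). In all 4 libraries 38 (48.7%) were at the same position, against 420 of the others (17.3%). This position was chosen after its counts were seen.

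On chromosome X, outside the range compared above, the abutting share was 33.3% in library 1 and 18.8% in library 2, lower than on any of the 19 autosomes of the same library, whose lowest shares were 56.8% and 40.3%. The median domain was 980 and 1200 kb long, and 69.3% of edges were shared (mean of both directions).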
